A study of Homo sapiens with 12 samples.

Results

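The 8 lysosomal cathepsins CTSA, CTSB, CTSC, CTSD, CTSK, CTSL, CTSS and CTSZ and the cathepsin inhibitor CST3 (cystatin C) were followed by gene symbol through the RNA sequencing of treated HT1080 cells. All 9 genes had a row in both deposited tables, which list 16101 genes for the PMA experiment and 15991 for the ConA experiment, with 15459 in both. HT1080 is a human fibrosarcoma line, labelled wt (wild type) throughout, and all 12 libraries were made from polyadenylated RNA of cells grown in biotin-depleted medium and moved to low serum. The PMA group was given 40 nM phorbol 12-myristate 13-acetate, a phorbol ester that activates protein kinase C, for 24 h, and the ConA group was given 40 µg/mL concanavalin A, a mannose-binding plant lectin, for 24 h. Each treatment had 3 libraries and its own 3 control libraries, labelled only as control, and each table was normalized by itself. The treatment and the experiment it was part of therefore cannot be told apart, and levels are set side by side across the tables only as values. No label says that the libraries of a group came from separate cultures, so the p-values measure the spread between these libraries, which may be technical, and the results describe a single cell line.

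Cathepsins are proteases of the acidic endosome and lysosome. They are made as inactive proenzymes, most travel on mannose 6-phosphate receptors, and they mature by cleavage in the acidic compartment. CTSB, CTSC, CTSK, CTSL, CTSS and CTSZ are cysteine proteases, CTSD is an aspartic protease and CTSA is a serine carboxypeptidase. Cystatin C is a secreted protein that binds and blocks cysteine cathepsins. In fibrosarcoma and other invasive cells, cathepsins are also released and take part in the breakdown of the extracellular matrix.

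Values are normalized counts per gene symbol as the authors deposited them. Estimated depth was 33616598 to 45567990 reads per library. A gene changed where limma on log2(normalized count + 1), with Benjamini-Hochberg adjustment over all tested genes of the table, gave an adjusted p of at most 0.05. A stricter call asked for a 2-fold change in either direction (1 on the log2 scale) together with an adjusted p no larger than 0.0001. Beside the HT1080 label, 7 mesenchymal markers were examined, all of which were listed in both tables. These markers are not particular to HT1080 and cannot verify the line. They summed to 544301 to 568341 normalized counts in the PMA controls, 599364 to 627351 with PMA, 634872 to 713766 in the ConA controls and 461449 to 496766 with ConA, and 3 rose and 4 fell with PMA while 1 rose and 6 fell with ConA. Of all tested genes, 32.8% rose and 30.5% fell with PMA, and 32.8% rose and 32.5% fell with ConA. Among the 7 markers VIM had log2 fold changes of 0.49 and -0.79, MMP2 of -1.28 and -0.71 and TIMP2 of -0.84 and -0.30, with PMA and ConA in that order. In bulk RNA, fewer cells expressing a gene and less RNA per cell cannot be told apart.

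With PMA, 8 of the 9 genes changed. CTSS, CTSL and CTSB rose, CTSA, CTSD, CTSZ, CTSK and CST3 fell, and CTSC did not pass the test. Of the 15153 genes tested in that table, 63.3% changed, 32.8% upwards and 30.5% downwards. With ConA, 3 of the 8 genes that could be tested changed, CTSS, CTSL and CST3, and all of them rose. CTSC was too low in that table to be tested. Of the 15139 genes tested with ConA, 65.3% changed, 32.8% upwards and 32.5% downwards. The median log2 fold change over the cathepsins and CST3 was -0.24 with PMA, where it was 0.0029 over all tested genes, and 0.10 with ConA, where it was -0.0022 over all tested genes. At the stricter call, CTSS alone passed with PMA and CTSS and CTSL passed with ConA, where 8.65% and 8.71% of all tested genes did. Treated and control libraries of 8 of the 9 genes were apart without overlap with PMA and those of 4 of the 8 tested with ConA, which held for 67.9% and 69.3% of all tested genes.

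**Figure D1:**
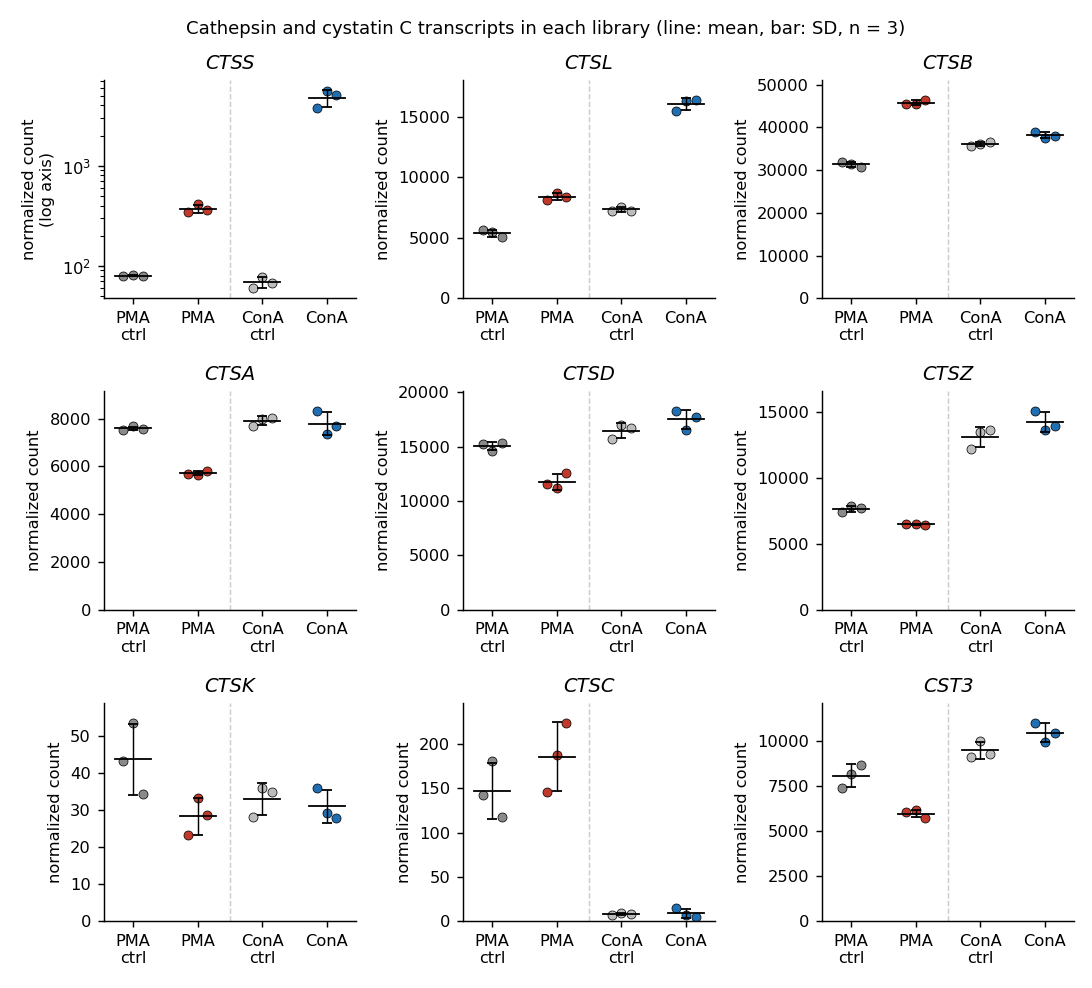
Normalized count of each of the 9 genes (y axis, logarithmic for CTSS and linear from 0 for the others) in the 3 libraries of each group (x axis). Points are libraries, horizontal lines are means and bars are SD, and the dashed line separates the tables, which were normalized separately. CTSS stood at 60.4 to 81.4 in all controls and at 3731 to 5559.6 with ConA, and CTSC was at 15.02 or less in all libraries of the ConA table.

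CTSS encodes cathepsin S, a cysteine protease that stays active at neutral pH and is best known for cleaving the invariant chain CD74 in antigen-presenting cells. It was among the least abundant of the 9 transcripts in control cells, with 79.3, 81.4 and 79.4 normalized counts in the PMA controls and 60.4, 78.0 and 67.1 in the ConA controls. PMA-treated libraries held 344, 411 and 365 normalized counts, all above their controls. ConA-treated libraries held 3731, 5559.6 and 5105, again with no overlap. The mean rose 4.66-fold with PMA, from 80.0 ± 1.17 to 373 ± 34.2 normalized counts (SD, n = 3), or by 2.20 on the log2 scale (standard error 0.10, limma adjusted p = 6.5e-09). With ConA it rose 70.0-fold, from 68.5 ± 8.88 to 4799 ± 952 (SD, n = 3), or by 6.10 on the log2 scale (standard error 0.13, limma adjusted p = 3.27e-14). By log2 fold change CTSS stood at rank 184 of 15153 genes with PMA and at rank 21 of 15139 with ConA, counted from the largest rise. The change with PMA was smaller than that with ConA by a log2 difference of -3.89 (standard error 0.18, adjusted p = 5.2e-12 from limma over all 12 libraries). CTSS lies next to CTSK in the order of protein-coding genes in RefSeq, and CTSK did not rise with either treatment, with log2 fold changes of -0.60 with PMA and -0.09 with ConA.

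The genes most like CTSS over the 12 libraries were sought by the root mean square difference of log2 values, each taken relative to the mean of the controls in its own table. The measure thus reflects the fold changes with PMA and ConA and the scatter of libraries. How many genes would lie as close by chance was not tested. Of 14661 genes tested in both tables, MMP13, a collagenase, was nearest at 0.30 on the log2 scale, with log2 fold changes of 2.32 with PMA and 5.77 with ConA. SAA1 followed at 0.40, with 2.45 and 6.57, and SAA2 at 0.49, with 3.04 and 6.35. SAA1 and SAA2 encode acute-phase serum amyloid A proteins and are close paralogs, so reads shared between them make their separate values uncertain.

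CTSL, a cysteine endopeptidase with broad substrates that include collagens and other proenzymes, rose with both treatments from a far higher level. The PMA controls held 5624, 5475 and 5035 normalized counts, and the PMA libraries held 8110.2, 8667 and 8387. In the ConA experiment the controls held 7201, 7572 and 7243 and the treated libraries 15516, 16306 and 16421.5. Treated libraries lay above all of their controls in both experiments. The mean rose 1.56-fold with PMA (log2 fold change 0.64, standard error 0.047, adjusted p = 3.84e-07 by limma) and 2.19-fold with ConA (1.13, standard error 0.050, adjusted p = 1.63e-10). The rise with PMA was smaller than that with ConA by a log2 difference of -0.49 (95% confidence interval -0.63 to -0.35, adjusted p = 8.02e-06). By the measure used for CTSS, with the same limits, the genes most like CTSL were BTN2A2 (root mean square difference 0.053), PI4K2B (0.059) and EXO1 (0.064).

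CTSB, which cuts within proteins and also removes dipeptides from their ends, was the most abundant of the 9 genes in every library by normalized count. It stood at 31846, 31431 and 30688 normalized counts in the PMA controls and at 45372, 45481 and 46471 with PMA. That is a 1.46-fold rise of the mean without overlap (log2 fold change 0.55, standard error 0.037, adjusted p = 2.01e-07 by limma). With ConA the values were 38934, 37580 and 37976, against 35593, 36137 and 36579 in the controls. The ConA libraries lay above all of their controls, but by little. Their log2 fold change of 0.08 did not pass the test (95% confidence interval -0.03 to 0.19, adjusted p = 0.183). The change with PMA exceeded that with ConA by a log2 difference of 0.47, the one positive difference among the 9 genes that passed (standard error 0.058, adjusted p = 2.17e-06). Under quantile normalization that difference was smaller, at 0.22 (adjusted p = 0.00334).

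CTSZ, a cysteine carboxypeptidase, fell slightly with PMA. Its normalized counts were 7415, 7861 and 7704 in the PMA controls and 6491, 6528 and 6409 with PMA. The groups did not overlap, and the log2 fold change was -0.24 (standard error 0.037, adjusted p = 1.5e-04 by limma). With ConA the values were 15069, 13661 and 13971, against 12215, 13459 and 13609.7, so the lowest treated library lay just above the highest control. With ConA a log2 fold change of 0.12 did not pass (95% confidence interval -0.01 to 0.25, adjusted p = 0.0853). The difference between the changes did, at -0.36 (adjusted p = 2.53e-04). Quantile normalization gave -0.39 for the change with PMA and -0.56 for the difference.

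CTSK, the collagen-degrading cathepsin of osteoclasts, was scarce in all libraries. It had 43.3, 53.7 and 34.3 normalized counts in the PMA controls and 23.2, 33.3 and 28.7 with PMA, with only a narrow gap between the groups. Its log2 fold change with PMA was -0.60 (standard error 0.24, adjusted p = 0.0439). The call was lost without PMA control 1 (adjusted p = 0.0994), PMA control 2 (0.178), PMA library 1 (0.130) or PMA library 3 (0.0701). ConA libraries had 36.0, 29.3 and 27.9 and their controls 28.1, 36.0 and 35.1, which overlap, and the log2 fold change was -0.09 (95% confidence interval -0.58 to 0.40, adjusted p = 0.749). The difference between the changes did not pass either, at -0.51 with a 95% confidence interval of -1.19 to 0.17.

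CTSC encodes dipeptidyl peptidase I, which activates the serine proteases stored in granules of T cells, natural killer cells and neutrophils. Its PMA controls held 143, 181 and 117 normalized counts and its PMA libraries 146, 187 and 224, so the groups overlap. A log2 fold change of 0.34 did not pass (95% confidence interval -0.05 to 0.73, adjusted p = 0.120). It passed without PMA control 2 (log2 fold change 0.50, adjusted p = 0.0335) or without PMA library 1 (0.50, adjusted p = 0.0303). In the ConA table the controls held 7.29, 10.0 and 8.01 and the treated libraries 15.02, 7.32 and 5.39, under the mean of 10 normalized counts needed for the test. The difference between its changes was 0.32 with a 95% confidence interval of -0.54 to 1.18, and it rests on those low ConA values.

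The 2 control groups were thus far apart in CTSC, at means of 147 and 8.44 normalized counts in separately normalized tables, and lymphocyte markers were apart with them. Of 8 lymphocyte markers, PTPRC, CD2, CD3D, CD3E, CD8A and NKG7 were listed in the PMA table, and the B cell genes CD79A and MS4A1 were not. Their summed level was 1117, 1017 and 928 normalized counts in PMA controls 1, 2 and 3 and 1270.02, 1455 and 1705 with PMA. In the ConA table CD3D alone was listed, at 21.9 to 31.0 in controls and 21.6 to 26.1 with ConA. In the PMA table CD3D stood at 78.7 to 88.5 in controls and at 73.1 to 140 with PMA. The sums of the tables thus cover unlike numbers of genes. With PMA, 3 of the 6 listed markers rose, CD3E (log2 fold change 0.78), NKG7 (0.55) and CD8A (0.55), and PTPRC stood at 180 ± 6.15 and 243 ± 80.4 (SD, n = 3; adjusted p = 0.101). Of all genes tested with PMA, 32.8% rose. Without PMA library 1, all 6 markers passed. The same table difference held for serine proteases that cathepsin C activates. GZMA, granzyme A, rose from a mean of 224 to 444 normalized counts in the PMA experiment and from 11.5 to 75.3 in the ConA experiment. GZMB, granzyme B, rose with PMA (log2 fold change 0.92, adjusted p = 0.0112) and was not listed in the ConA table. The part of lymphocyte RNA in the levels of CTSC, and in the change of CTSS with PMA, was not tested.

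**Figure D2:**
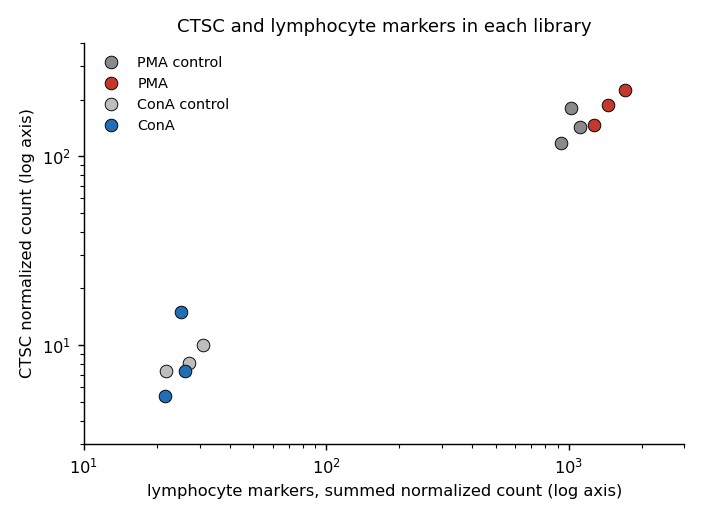
CTSC normalized count (y axis, logarithmic) against the summed normalized count of the listed lymphocyte markers (x axis, logarithmic), with a point per library and a colour per group. The 6 libraries of the PMA table lie at marker sums of 928 to 1705 and the 6 of the ConA table, where CD3D alone is listed, at 21.6 to 31.0. The x axis therefore sets a sum of 6 genes beside a single gene.

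Monocyte and macrophage markers were examined in the same way, since these cells are rich in CTSS. Of 10 markers, 4 were listed in the ConA experiment, and PTPRC, CD14, CD163, TYROBP, AIF1 and FCGR3A were not. The summed level was 6175 to 6604 normalized counts in the controls and 17578 to 20786 with ConA. CD68, which is itself a lysosomal membrane glycoprotein, made up most of that sum and rose from 5925 ± 203 to 18897 ± 1649 normalized counts (SD, n = 3). ITGAM rose from 3.69 to 29.4 and CSF1R fell from 357 to 259.6, so 2 markers rose and 1 fell. Over all tested genes, 32.8% rose and 32.5% fell with ConA, and 32.8% rose and 30.5% fell with PMA. In the PMA experiment, 7 of 10 were listed, without CD14, TYROBP and AIF1, with sums of 5486 to 5953 in the controls and 7744 to 8111 with PMA. There 3 of 6 tested markers rose with PMA, among them CD163, from 3.63 to 28.2 normalized counts (log2 fold change 2.67). CSF1R, ITGAM and PTPRC did not pass. LYZ went the other way, from 10.8 to 2.77 normalized counts, and was too low to be tested. Of 5 osteoclast markers, 2 were listed in each table. TNFRSF11A, the RANK receptor, rose with both (log2 fold changes 0.74 and 0.58), and ACP5 fell with PMA (-0.87) and rose with ConA (0.83). Of 5 epithelial markers 1 was listed in the PMA table and 4 in the ConA table, at sums of 59.9 to 197, and CLDN4 fell with PMA (-0.72). With ConA it rose by 0.35 on the log2 scale (adjusted p = 0.0481), a call lost without any single ConA control (4, 5 or 6) and without ConA library 1 or 3, which left 0 markers called.

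CTSD, the main aspartic protease of the lysosome, was lower with PMA. The controls held 15247, 14643 and 15318 normalized counts and the PMA libraries 11540.5, 11174 and 12549, with no overlap. The log2 fold change was -0.36 (standard error 0.047, adjusted p = 4.2e-05 by limma), and under quantile normalization it was -0.55. ConA libraries held 18276, 16529.9 and 17772 and their controls 15695, 16984 and 16768, which overlap, and the log2 fold change of 0.09 did not pass (95% confidence interval -0.03 to 0.21, adjusted p = 0.182). PMA and ConA changes differed by -0.45 (standard error 0.074, adjusted p = 5.22e-05).

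CTSA, known as protective protein because it also stabilizes the lysosomal β-galactosidase GLB1 and the sialidase NEU1, fell by a similar amount with PMA. Its values were 7538, 7672 and 7555 normalized counts in the PMA controls and 5689.9, 5643 and 5811 with PMA, 2 tight groups far apart. The log2 fold change was -0.41 (standard error 0.035, adjusted p = 1.25e-06). With ConA the values of 8309.9, 7351 and 7694 overlapped the controls at 7684, 8001 and 8021, and the log2 fold change was -0.02 (95% confidence interval -0.14 to 0.10, adjusted p = 0.731). The changes differed by -0.39 (adjusted p = 5.94e-05). Its partner GLB1 had log2 fold changes of -0.19 with PMA (adjusted p = 0.0045) and 0.23 with ConA (adjusted p = 0.00118), and NEU1 of -0.08 (adjusted p = 0.182) and 0.19 (adjusted p = 0.00676). Whether the counting used strand is not given in the sources used here, and exons of NEURL2 and PLTP overlap CTSA on the other strand, with at most 66.1 normalized counts each.

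Many lysosomal genes, CTSA and CTSD among them, are known targets of the transcription factor TFEB, which binds E-box motifs near their start. The sequences upstream of CTSA and CTSD are shown because both fell with PMA, beside that of CTSL, which rose. CTSZ (log2 fold change -0.24) and CST3 (-0.43) also fell with PMA, and their windows, not shown, hold no E-box CACGTG. Whether the motif bears on these changes was not tested. Promoter sequences were taken from RefSeq (GRCh38.p14), and 6 of the 9 genes matched its table, CTSA, CTSC, CTSD, CTSL, CTSZ and CST3. CTSB (log2 fold change 0.55) and CTSS (2.20), which rose with PMA, and CTSK (-0.60), which fell, had no entry and were not searched. CTSA lies on the plus strand of chromosome 20 (window chr20:45891085-45891334), CTSD on the minus strand of chromosome 11 (chr11:1763928-1764177) and CTSL on the plus strand of chromosome 9 (chr9:87725869-87726118). Each window holds the 250 bases before the annotated start, 5′ to 3′ on the strand of the gene, and capitals mark the E-box CACGTG.
CTSA: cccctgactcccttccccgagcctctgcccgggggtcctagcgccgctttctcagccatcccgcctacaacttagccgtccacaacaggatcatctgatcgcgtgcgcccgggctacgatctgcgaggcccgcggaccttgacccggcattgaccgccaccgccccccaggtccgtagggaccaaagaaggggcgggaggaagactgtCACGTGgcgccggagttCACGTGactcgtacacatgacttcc
CTSD: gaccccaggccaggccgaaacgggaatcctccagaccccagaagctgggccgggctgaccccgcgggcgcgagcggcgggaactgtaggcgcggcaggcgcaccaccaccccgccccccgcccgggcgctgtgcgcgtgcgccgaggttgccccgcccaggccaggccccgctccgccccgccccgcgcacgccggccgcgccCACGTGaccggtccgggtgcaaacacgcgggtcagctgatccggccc
CTSL: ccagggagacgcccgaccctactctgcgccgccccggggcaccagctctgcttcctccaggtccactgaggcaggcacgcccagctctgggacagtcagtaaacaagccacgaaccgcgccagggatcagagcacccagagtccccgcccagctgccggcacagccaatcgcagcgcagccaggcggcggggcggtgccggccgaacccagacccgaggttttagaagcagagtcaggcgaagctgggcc
The E-box CACGTG, which reads the same on both strands, occurred 2 times upstream of CTSA, with first bases at -42 and -25, and at -47 upstream of CTSD. It was not in the windows of CTSC, CTSL, CTSZ or CST3, and 6.34% of 35116 promoters of the same length hold it. The longer CLEAR element was searched only as an exact match to the E-box with GT before it and AC after it. That match was in none of the 6 windows and in 0.308% of all promoters, and inexact matches were not counted. Among 4 further motifs searched on both strands, the AP-1 site TGANTCA (6.57% of all promoters), the interferon-stimulated response element (GAAA, any 2 bases, GAAA; 3.02%) and the GAS element TTCNNNGAA (6.57%) were in none of the 6 windows. A κB consensus (5.21% of all promoters) was found upstream of CTSZ, with its first base at -54. A match is a stretch of letters and not a measured binding site.

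Transcripts of the TFEB family were measured, and the activity of the proteins was not. TFEB fell with PMA from 556 ± 18.9 to 221 ± 7.76 normalized counts (SD, n = 3; log2 fold change -1.33, adjusted p = 2.6e-08 by limma). It also fell with ConA, from 1304 ± 159 to 908 ± 77.1 (log2 fold change -0.52, adjusted p = 1.49e-04 by limma). With ConA the log2 fold changes of CTSA (-0.02) and CTSD (0.09) did not pass the test. Whether the change in TFEB bears on any of the 9 genes was not tested. TFE3, a close relative, rose with PMA (log2 fold change 0.57, adjusted p = 4.64e-07) and stood at 0.03 with ConA (adjusted p = 0.678). TFEC, the macrophage-restricted member, rose with ConA from 16.9 to 68.2 normalized counts (log2 fold change 1.94, adjusted p = 2.32e-06), and MITF rose with PMA (0.30) and fell with ConA (-0.44).

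CST3, the inhibitor, went down with PMA. Its normalized counts were 7403, 8159 and 8689 in the PMA controls and 6043, 6153 and 5743 with PMA. The groups did not overlap, and the log2 fold change was -0.43 (standard error 0.056, adjusted p = 3.98e-05 by limma). With ConA the values were 11012, 9955 and 10428, against 9104, 10016 and 9300.2 in the controls, so the lowest treated library lay under the highest control. The log2 fold change of 0.14 with ConA passed narrowly (standard error 0.057, 95% confidence interval 0.02 to 0.27, adjusted p = 0.0379). That call was lost without ConA control 4 (adjusted p = 0.123), ConA control 6 (0.113), ConA library 1 (0.132) or ConA library 3 (0.0879). The changes with PMA and ConA differed by -0.58 (95% confidence interval -0.75 to -0.40, adjusted p = 1.14e-05).

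**Figure D3:**
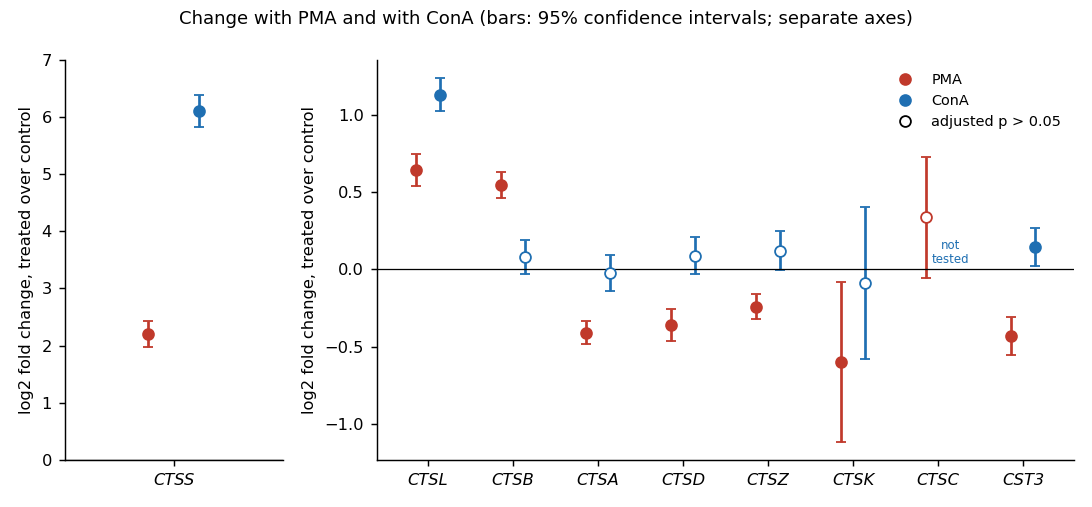
Log2 fold change of each gene, treated over control, on the log2(normalized count + 1) scale (y axis), with CTSS on an axis of its own. Points are limma estimates from 3 against 3 libraries, bars are 95% confidence intervals and open points did not pass an adjusted p of 0.05. CTSS reached 2.20 with PMA and 6.10 with ConA, and CTSA, CTSD, CTSZ and CST3 lay under 0 with PMA with intervals that do not reach 0.

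Across the 9 genes, the change with PMA differed from that with ConA for 7 genes, CTSA, CTSB, CTSD, CTSL, CTSS, CTSZ and CST3, where 61.1% of 15030 tested genes did. CTSS and CTSL rose with both treatments, which 15.3% of the 14661 genes tested in both did. CST3 fell with PMA and rose with ConA, and 13.8% of genes changed in opposite directions. The 9 genes summed to 75219 to 75556 normalized counts in the PMA controls and to 83759 to 85988 in the treated libraries. In the ConA table the controls summed to 87587 to 92293 and the treated libraries to 106979 to 110899.

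Transcripts of CTSB, CTSC, CTSK, CTSL, CTSS and CTSZ were summed and divided by those of the inhibitor CST3, in normalized counts. This is a ratio of transcripts, and the balance of the proteins was not measured. Other cystatins were left out of it. CSTB, the most abundant of these, rose with PMA from 2322 to 3329 normalized counts and with ConA from 3000 to 3367. CST1 and CST2 rose with PMA from low levels, and CSTA and CST7 fell with ConA. The ratio was 5.55 ± 0.537 in the PMA controls and 10.2 ± 0.457 in the treated libraries (SD, n = 3), a log2 difference of 0.89. In the ConA experiment it was 5.99 ± 0.241 in the controls and 7.02 ± 0.347 with ConA, a log2 difference of 0.23. Neither pair of groups overlapped, and each exact two-sided permutation test gave p = 0.1, the smallest value that 3 against 3 libraries allow. In the PMA table CTSB made up 70.2% of the sum in control and 74.8% in treated libraries, and in the ConA table these shares were 63.7% and 52.1%. The share of CTSL went from 12.0% to 13.7% in the PMA table and from 13.0% to 21.9% in the ConA table, and that of CTSS from 0.179% to 0.609% and from 0.121% to 6.55%. With the mean of the 6 log2 values in place of the log2 of their sum, which gives scarce genes the same weight as CTSB, the log2 difference was 0.91 with PMA and 1.08 with ConA. The value with ConA rests largely on CTSS, whose log2 fold change was 6.10. CTSL stood at 1.13, CTSZ at 0.12, CTSB at 0.08 and CTSK at -0.09, and CTSC was too low there to be tested.

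Levels of different genes were compared per kilobase, with the median length of their consensus coding transcripts in GENCODE 29. CTSB was highest in all 4 groups. It stood at 15591 normalized counts per kilobase in the controls of the PMA table against 22785 in its treated libraries, and at 17971 against 18996 in the ConA table. CTSS, CTSK and CTSC were the lowest 3 genes in both control groups. In the PMA controls CTSC stood at 76.5, CTSS at 28.96 and CTSK at 25.9 normalized counts per kilobase, and the ranges of CTSS and CTSK over libraries overlapped. In the ConA controls CTSS stood at 24.8, CTSK at 19.5 and CTSC at 4.39. With ConA, CTSS stood at 1736 per kilobase and was still under CTSA at 4102. By the median length, CTSL was the lowest of the 6 abundant genes in both control groups. It stood above CTSA with both treatments, at 4643 against 3011 with PMA and 8902 against 4102 with ConA. In the ConA controls the ranges of CTSL and CTSA overlapped. CST3 ranked directly after CTSB in all 4 groups, but its place depends on the transcript chosen, and with the longest transcript of each gene it was in place 6 in all 4 groups. CTSL was then in place 5 in both control groups, and the order of CTSS, CTSK and CTSC in the controls was also different. CTSB stayed highest, but its range overlapped that of CTSZ with ConA.

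Other genes of the lysosome were counted by list. The shares over all tested genes belong beside each list count that follows. They were 32.8% up and 30.5% down with PMA, and 32.8% up and 32.5% down with ConA. Of 7 further cathepsins, 5 were tested with each treatment, and 1 rose and 4 fell with PMA (median log2 fold change -0.87) while 2 rose and 2 fell with ConA (0.06). CTSO, a cysteine cathepsin, fell with PMA from 353 ± 9.11 to 167 ± 2.21 normalized counts (SD, n = 3; log2 fold change -1.08) and rose with ConA from 573 ± 35.4 to 829.9 ± 78.1 (log2 fold change 0.53). CTSW, a cathepsin of natural killer and T cells, rose with both (log2 fold changes 1.25 and 2.66), from 93.3 normalized counts in the PMA controls and 5.38 in the ConA controls. CTSV, the nearest relative of CTSL, fell with PMA (-0.89) and stood at 0.06 with ConA (adjusted p = 0.778), and its 4 group means were 24.4 to 68.1 normalized counts.

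Of 8 further cystatins, 3 of 5 tested rose with PMA and none fell, with a median log2 fold change of 0.52. The secreted cystatins CST1 (log2 fold change 1.38) and CST2 (1.77) rose with PMA from means of 12.1 and 7.27 normalized counts, and as near-identical paralogs their separate values are uncertain. CSTB, the abundant cytosolic cystatin, rose with PMA (0.52, adjusted p = 5.88e-06) and with ConA (0.17, adjusted p = 0.0291). With ConA 1 of 3 tested rose and 2 fell (median -0.84). CST7, cystatin F of immune cells, fell with ConA from 102 to 34.1 normalized counts (log2 fold change -1.54).

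A list of 11 genes covered cathepsin processing and the sorting of lysosomal proteins, by mannose 6-phosphate or, for SCARB2 and SORT1, without it. Of these 11 genes, 3 rose and 5 fell with PMA (median log2 fold change -0.04) and 6 rose and 2 fell with ConA (0.23). LGMN, the asparaginyl endopeptidase that cuts several cathepsin proforms, rose with ConA from 2248 ± 48.6 to 7001 ± 480.4 normalized counts (SD, n = 3; log2 fold change 1.64, adjusted p = 1.28e-11) and fell with PMA (-0.22, adjusted p = 0.00115). SCARB2, the receptor that carries β-glucocerebrosidase to lysosomes, rose with ConA from 9101 to 25696 (log2 fold change 1.497) and rose less with PMA (0.26). NAGPA, which uncovers the mannose 6-phosphate tag, fell with PMA (-0.72) and stood at 0.07 with ConA (adjusted p = 0.43).

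Among the other lysosomal hydrolases and cofactors, 8 of 38 tested rose and 20 fell with PMA (median log2 fold change -0.16), and 19 of 37 rose and 6 fell with ConA (0.18). LIPA, the lysosomal acid lipase, fell with PMA from 3103 ± 123 to 1003 ± 11.1 normalized counts (SD, n = 3; log2 fold change -1.63) and rose with ConA (0.60). FUCA1, the lysosomal fucosidase, fell with PMA (-1.55) and with ConA (-0.22), and SGSH, a sulfatase of heparan sulfate breakdown, rose with PMA (0.21) and ConA (1.01). Lysosomal membrane proteins went up for 5 and down for 3 of 10 with PMA (median 0.17) and up for 4 and down for 2 with ConA (0.07). CLCN7, the lysosomal chloride exchanger, rose with both (0.42 and 0.63), CD63 rose with PMA (0.55) and LAMP2 fell with both (-0.46 and -0.41).

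Subunits of the V-ATPase, the proton pump that acidifies the lysosome, rose for 13 and fell for 2 of 16 with PMA (median log2 fold change 0.30), and rose for 4 and fell for 4 with ConA (0.03). Shares over all tested genes were 32.8% up and 30.5% down with PMA, and 32.8% up and 32.5% down with ConA. Without ConA control 5, or without ConA library 3, 5 subunits changed with ConA. ATP6V0B (0.61), ATP6V0A1 (0.61) and ATP6V1B2 (0.54) had the largest changes, all with PMA. Genes of MHC class II presentation, the pathway in which cathepsin S acts, rose for 1 and fell for 5 of 8 with PMA (median -0.57) and rose for 7 of 8 with none lower with ConA (0.81). CD74, the invariant chain, rose with ConA from 1214 ± 21.6 to 11733 ± 1161 normalized counts (SD, n = 3; log2 fold change 3.27, adjusted p = 2.01e-14) and stood at 0.12 with PMA (adjusted p = 0.552). CIITA, the class II transactivator, fell with PMA (-1.55) and rose with ConA (0.53), and HLA-DPA1 did likewise (-0.57 and 1.22).

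**Figure D4:**
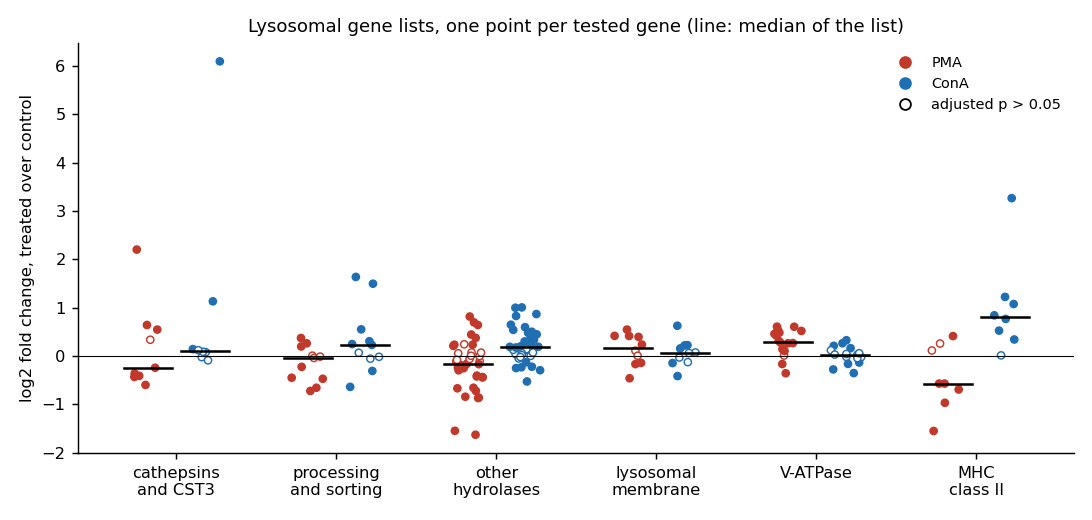
Log2 fold change of each tested gene, treated over control (y axis), for the cathepsins with CST3 and for 5 lists of lysosomal and MHC class II genes (x axis), with PMA and ConA side by side. Each point is a gene, the line is the median of its list and open points did not pass an adjusted p of 0.05. V-ATPase subunits have a median of 0.30 with PMA and 0.03 with ConA, and MHC class II genes -0.57 and 0.81.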

How the data were processed

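RNA from HT1080 cells was sequenced by a service company after poly(A) selection. The deposited signal values are the authors' normalized counts, given by gene symbol, estimated where reads are shared, divided by a factor per library and not by gene length. The submitters' processing notes name Partek, Bowtie2, STAR and DESeq2 and the builds hg19 and mm10, with no role or order, and the files hold no coordinates. Every sample column was used and 0 were left out. From the values, 81.8% to 84.2% of entries between 5 and 60 became whole reads within 0.05, so whole reads were not recovered and no count test was run. The factors were used only to estimate depth. Replicate libraries differed by 3.53 to 16.4 times the sampling variance, so the spread between libraries sets the precision.

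Groups followed the labels, 3 libraries each. Each table was fitted alone with limma 3.58.1 in R 4.3.3 (variance trend) on log2(normalized count + 1), so folds of low genes are understated. Genes needed a mean of at least 10 over the 6 libraries, with Benjamini-Hochberg adjustment over all of them. The difference between the changes came from a fit with 4 group means over all 12 libraries. Confidence intervals are per gene and unadjusted. The ratio to CST3 was tested by exact permutation. On simulated data with 200 changed genes the scripts were tested first. Transcript lengths came from GENCODE 29 and promoters from RefSeq. Plots used Python 3.11.15 and matplotlib 3.10.9.

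The 9 genes, the 14 background lists, the tests and the rule for named genes were chosen with earlier results of these data known. The rule took all 9 genes, the 3 genes most like each of up to 3 of them that passed the stricter call, and up to 3 changed genes per background list with the largest change. GLB1, NEU1, CSTB, MITF, CSF1R and PTPRC, outside the rule, are named beside them for their roles, and LYZ for its opposite direction. Alternatives covered pseudocounts of 0.1 and 10, quantile normalization, median centring, a mean of at least 50 or no filter, no variance trend, a joint fit, a replicate block and leaving out each library. Per-kilobase levels with the longest transcript were added after seeing the data. Protein sequences were not used here.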

Additional observations from a re-analysis of the deposited data

Results flagged for a closer look

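For 7 genes PMA and ConA gave different changes, by the limma test of the difference itself over all 12 libraries (adjusted p of 0.05 or less). The difference, PMA change minus ConA change on the log2 scale, was -3.89 for CTSS and -0.49 for CTSL, which rose with both treatments. It was 0.47 for CTSB, which rose with PMA and had an interval across 0 with ConA. For CTSA it was -0.39, for CTSD -0.45 and for CTSZ -0.36, which fell with PMA and did not pass the test with ConA. For CST3, lower with PMA and narrowly higher with ConA, it was -0.58. Each experiment had its own controls and its own normalization, so treatment and experiment cannot be told apart. Of all 15030 genes tested, 61.1% had such a difference. No group of 3 libraries was tested for single outlying values.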

How the results depend on the processing

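Of 26 tests of single genes, 20 kept their direction and their side of the threshold under every alternative, among them all tests of CTSS, CTSL and CTSD and all differences between treatments. Sizes moved more than calls under quantile normalization, where the difference between treatments went from 0.47 to 0.22 for CTSB and from -0.36 to -0.56 for CTSZ, and the change with PMA from -0.36 to -0.55 for CTSD and from -0.24 to -0.39 for CTSZ. The count of cathepsins and CST3 changed with ConA went from 3 to 5 under quantile normalization, with CTSB (log2 fold change 0.22, adjusted p = 7.33e-04 by limma) and CTSZ (0.16, adjusted p = 0.0146) added, and the cause was not tested. With a library left out it was 2 to 3, and with PMA 7 to 8. The change of CTSA with ConA turned from -0.02 to 0.017 without ConA library 2, with -0.071 as its lowest value when a library was left out, and passed in neither case. CTSK with PMA (log2 fold change -0.76 to -0.30 over the alternatives) lost its call under quantile normalization (adjusted p = 0.285) and had no value at a mean of at least 50. CST3 with ConA (0.08 to 0.18) lost it under median centring (adjusted p = 0.241) and without the variance trend (0.0989). CTSC with PMA (0.19 to 0.51) passed under quantile normalization (adjusted p = 0.0264). CTSZ with ConA passed in the joint fit (adjusted p = 0.0405). Of 406 counts for the background lists, 20 moved by over 1.5 times. With PMA, the changed MHC class II genes went from 6 to 3 and the granule serine proteases from 2 to 1 without the variance trend, the latter also in the joint fit. The changed cystatins and the monocyte markers went from 3 to 1 at a mean of at least 50, and the monocyte and lymphocyte markers from 3 to 5 under quantile normalization. Lymphocyte markers with PMA were 0 in the joint fit, which holds genes of both tables only. With ConA, granule serine proteases went from 1 to 0 at a mean of at least 50, and epithelial markers from 1 to 0 under quantile normalization or median centring and to 2 without a filter. Scaling moved the median of all genes by under 0.1 (log2).

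The replicate numbers 1 to 3 are shared by PMA and its controls. Deviations of same-numbered libraries correlated at -0.06, 0.10 and 0.10, and PMA control 1 correlated best with PMA library 2 (0.11), so the numbers were not taken to pair the libraries. With the replicate number as a block, 8 genes changed with PMA, as without it, 1 passed the stricter call, and the log2 difference in the ratio to CST3 was 0.89 (exact sign-flip p = 0.25, the smallest possible). ConA and its controls share no numbers. Low values limit CTSC in the ConA table and CTSK in both, which rest on 5.39 to 53.7 normalized counts per library.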
